A study of Sus scrofa with 6 samples.

Results

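Among the 9362 circular RNAs (circRNAs) found in porcine granulosa cells, 285 (3.04%) were assigned by the authors to the intronic category, and these are described here. The members are the entries of the circRNA table whose category is intronic, and no measured value was used to choose them. The granulosa cells, which line the follicle and nourish the oocyte, came from antral follicles of nulliparous gilts in the follicular phase of the cycle. Follicles were sorted by appearance into atretic antral (AA) follicles at an advanced stage of degeneration and healthy antral (HA) follicles, and 3 libraries of rRNA-depleted total RNA were made from pooled follicles of each group. No treatment or genetic change was applied in either group. The cells scraped from the wall were mixed with the follicular fluid in both groups, and in AA follicles this fluid also held detached apoptotic granulosa cells. The labels give separate samples, but an animal may have contributed follicles to several pools, so the p-values measure the spread between pools.

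A circRNA is recognised by reads that cross a back-splice junction, at which the downstream end of an RNA segment is joined to its upstream end. In human cells, circular intronic RNAs are known to come from intron lariats, the looped by-products of splicing, when they escape the debranching enzyme DBR1 and lose their tail. Such RNAs are largely nuclear, and some have been linked to transcription of their own host gene, whereas most exonic circRNAs are made by back-splicing and accumulate in the cytoplasm. The deposited category rests on position relative to annotated exons, and the table does not say whether a junction joined a splice site to a branch point.

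The libraries held 25838 to 34414 junction reads in total. The number of circRNAs of every class was 3036, 1270 and 1620 in AA libraries 1, 2 and 3, against 1416, 2804 and 3465 in HA libraries 1, 2 and 3. Fewer circRNAs were found in AA libraries 2 and 3 and in HA library 1, where the median detected circRNA had 13 or 14 reads, than in the remaining libraries, where it had 4 to 6 reads. The summed FPKM of 8 granulosa markers was 2706 to 6235 in AA and 5691 to 11216 in HA, with a median log2 fold change of −0.69. Among them FSHR alone had a positive log2 fold change, with 90.1 FPKM in AA and 37.6 FPKM in HA on average. CYP19A1, the aromatase that makes estradiol, averaged 220 FPKM in AA and 866 FPKM in HA. For 10 leukocyte markers the summed FPKM was 24.5 to 81.7 in AA and 3.88 to 12.4 in HA, with CD163 listed at 0 in every library. CD68 had the highest mean in AA through AA library 2 (32.7 FPKM, against 22.4 FPKM for AIF1), while AIF1 exceeded it in AA libraries 1 and 3. The sums were 55.6 to 156 in AA and 25.4 to 44.3 in HA for 7 fibroblast and smooth muscle markers, 7.76 to 16.6 in AA and 3.36 to 6.04 in HA for 4 endothelial markers, 44.6 to 103 in AA and 214 to 350 in HA for 6 theca markers (mostly LHCGR, with 21.2 to 65.3 in AA and 172 to 286 in HA, which granulosa cells also express), and 13.2 to 39.6 in AA and 23.6 to 80.3 in HA for 3 red cell markers. The theca-specific enzyme CYP17A1 averaged 0.0686 FPKM in AA and 0.622 FPKM in HA, where HA library 2 had 1.38 FPKM and HA libraries 1 and 3 had 0.297 and 0.191 FPKM. These values are near the floor and the gene was not tested. The paper reports that its mRNA was under the detection limit of quantitative PCR in the isolated cells. The part of these markers in the results below was not tested, and in pooled tissue fewer cells of a type and less RNA per cell cannot be told apart.

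The intronic circRNAs were rare as a class, and a handful of them carried most of the reads. Together they had 4345 junction reads, 2.37% of all junction reads. The median intronic circRNA had 5 reads summed over the 6 libraries, against 6 for exonic and 7 for sense overlapping circRNAs, and 217 of the 285 (76.1%) had at most 10 reads. The 2 leading members held 37.8% of the intronic reads and the first 6 held 51.8%. In the other classes, the 2 leading circRNAs held 17.997% (intergenic), 10.4% (sense overlapping), 7.79% (antisense) and 3.12% (exonic) of the reads of their class. These classes had 1195, 2243, 549 and 5090 members, against 285, so 2 leaders were a smaller part of each. Only 6 intronic circRNAs (2.11%) had more than 50 reads, against 3.46% of the exonic, 9.09% of the sense overlapping, 2.43% of the intergenic and 1.09% of the antisense ones.

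The member with the most reads was circ_ZCCHC11, a span of 63667 nt on the minus strand at chr6:147362290-147425956 (Sscrofa10.2). Its host gene, also called TUT4, encodes a terminal uridylyltransferase that adds uridines to RNAs such as let-7 precursors in human and mouse cells. It had 142, 122 and 231 reads in AA libraries 1 to 3, against 151, 173 and 154 reads in HA libraries 1 to 3. The groups overlapped, and the log2 fold change of AA over HA was 0.08 ± 0.46 (SE, edgeR quasi-likelihood test, adjusted p = 0.998). It was not the only circular product of this gene, since the 2 intronic circRNAs named for ZCCHC11 held 26.4% of the 3730 reads of the 8 circRNAs of that gene.

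The second member, circ_PON1, spanned 47608 nt on the minus strand at chr9:82271887-82319494. It had 112, 57 and 122 reads in AA libraries, against 110, 97 and 170 reads in HA libraries. The groups overlapped here too, with a log2 fold change of −0.37 ± 0.55 (SE, edgeR, adjusted p = 0.998). PON1 encodes paraoxonase, a liver enzyme carried in blood on high-density lipoprotein, and was listed at 0 FPKM in all 6 libraries. The circRNA lies 7823 nt outside the PON1 locus of the gene table (chr9:82327317-82339662). It contains the locus of an unnamed gene of the same strand, ENSSSCG00000023547, which had a mean of 36.3 FPKM. A second circRNA named for PON1, of 37365 nt at chr9:82272680-82310044, had no reads in the AA libraries, against 22, 9 and 0 reads in HA libraries 1, 2 and 3.

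The next 5 members were seen in 4 to 6 libraries. That of CSPP1, a protein of centrosomes and spindle poles, spanned 9431 nt (chr4:73740572-73750002, minus strand) and had 44, 68 and 15 reads in AA libraries, against 0, 60 and 46 reads in HA libraries. That of ZEB1, a zinc finger repressor of epithelial genes, spanned 16028 nt (chr10:46597662-46613689, plus strand) and had 20, 41 and 30 reads in AA libraries, against 20, 10 and 24 reads in HA libraries. That of NAA15, the ribosome-bound subunit of an N-terminal acetyltransferase, spanned 21037 nt (chr8:93287563-93308599, minus strand) and had 32, 19 and 37 reads in AA libraries, against 0, 20 and 26 reads in HA libraries. In each of these, single libraries lay far from others of their own group, and the ranges of AA and HA overlapped. A 49437-nt circRNA of the unnamed gene ENSSSCG00000024272 (chr9:23112748-23162184, plus strand) had 9, 32 and 0 reads in AA libraries, against 13, 21 and 23 reads in HA libraries. The circRNA of DYRK1A, a protein kinase, spanned 11017 nt (chr13:211120471-211131487, plus strand) and had 0, 6 and 11 reads in AA libraries, against 18, 0 and 7 reads in HA libraries. Of these 7 leading members, ZCCHC11, PON1 and ZEB1 alone gave reads in all 6 libraries.

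**Figure D1:**
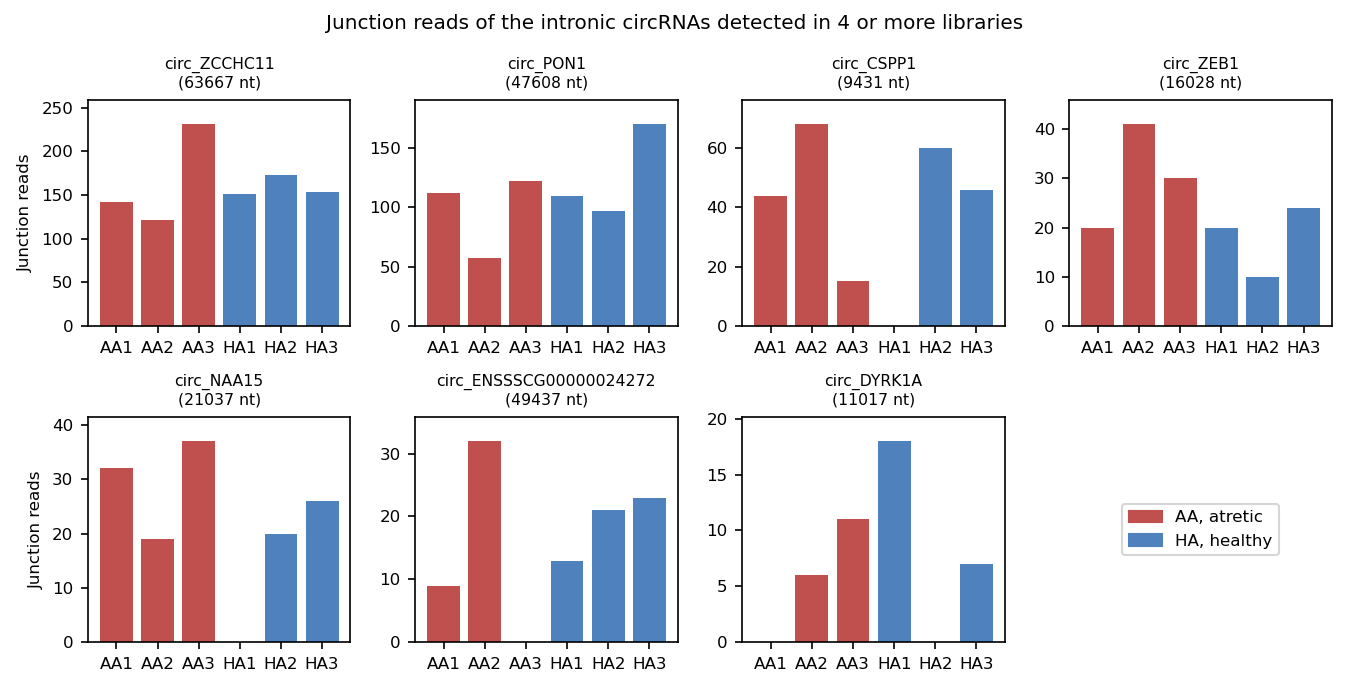
Junction reads (y axis, a separate scale per panel) in AA libraries 1 to 3 and HA libraries 1 to 3 (x axis) of the 7 intronic circRNAs detected in 4 or more libraries, 1 bar per library. The bars of circ_ZCCHC11 lie between 122 and 231 reads in AA and between 151 and 173 reads in HA, and 4 of the panels have a library without reads.

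Among the 10 members with the most reads were 3 more, of lower count. A 2978-nt circRNA of ENSSSCG00000024272 had 0, 24 and 11 reads in AA libraries, against 0, 0 and 2 reads in HA libraries. The circRNA of UNK, a zinc finger RNA-binding protein, spanned 1699 nt and had 0, 0 and 29 reads in AA libraries, against 0, 6 and 0 reads in HA libraries. The third was the second circRNA of PON1 given above. Each of these 3 lacked reads in at least 1 library of each group.

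Length set the members apart from each other. The predicted length of every intronic circRNA equals the genomic distance between its ends, so no intron was subtracted from it. The shortest measured 86 nt and the longest 98667 nt, around a median of 587 nt with quartiles of 240 and 3703 nt. The exonic circRNAs, for which exon lengths are summed in most cases, had a median of 557 nt and quartiles of 361 and 889 nt, and sense overlapping circRNAs had a median of 13001 nt. Thus the intronic median lay near the exonic one while its upper tail did not, and 45 intronic circRNAs (15.8%) exceeded 10000 nt, against 0 exonic ones. Exonic lengths are a different measure, however. Intergenic and antisense lengths equal the genomic distance, as intronic ones do, and had medians of 957 and 492 nt. Of these, 20.9% of intergenic and 12.4% of antisense circRNAs exceeded 10000 nt, so the long tail was not particular to the intronic class. The 3 shortest were those of TIMP2 (86 nt, 11 reads in AA library 3), EPC1 (92 nt, 4 reads in HA library 2) and AAK1 (94 nt, 4 reads in AA library 3). They come from the genes of a metalloproteinase inhibitor, of a subunit of a histone acetyltransferase complex and of a kinase of clathrin-coated vesicles. The 3 longest were named for FGL2 (98667 nt, 3 reads in HA library 3), INVS (68586 nt, 8 reads in HA library 2) and ZCCHC11 (64513 nt, 10 reads in AA library 1). INVS encodes inversin, a protein of the primary cilium.

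Most of the reads came from a few long members, and nearly all members under 1000 nt were seen in 1 library. The 89 circRNAs under 300 nt held 13.2% of the intronic reads, and 2 of them were seen in more than 1 library. The 80 circRNAs of 300 to under 1000 nt held 12.6% of the reads, and none of them was seen in a second library. The 64 circRNAs of 5000 nt and over held 62.9% of the reads, of which 6 members alone gave 2251 reads. Of the 64, 15 were seen in 2 or more libraries and 49 in 1, and their median was 7 reads. The 23 members detected in 2 or more libraries had a median length of 11017 nt, against 519 nt for the 262 members of a single library. No single-library member had more than 28 reads.

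**Figure D2:**
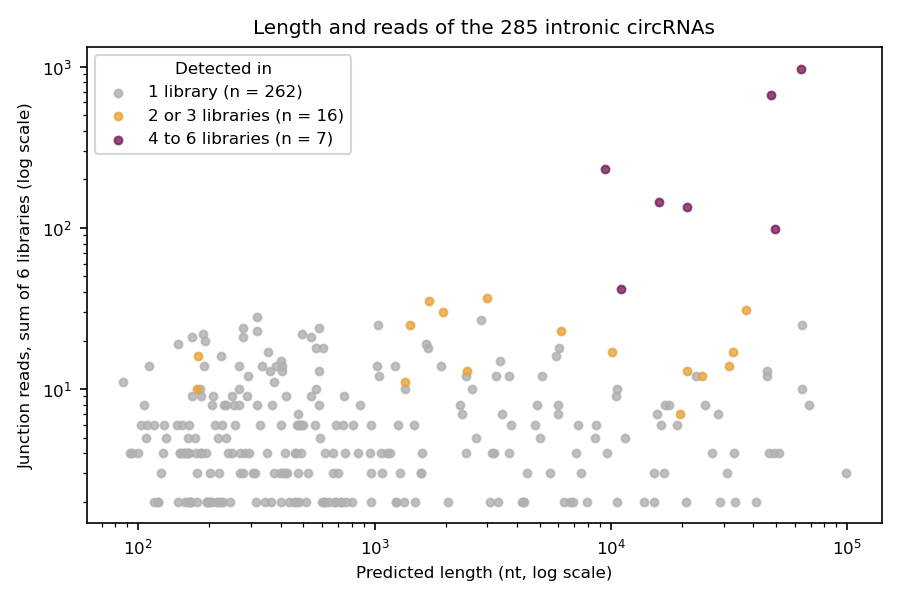
Predicted length (x axis, nt, log scale) against junction reads summed over the 6 libraries (y axis, log scale) for the 285 intronic circRNAs, 1 point each, coloured by the number of libraries in which it was detected. The 7 members of 4 to 6 libraries lie at 9431 to 63667 nt with 42 to 973 reads, and the 262 members of a single library extend over the whole range of lengths with at most 28 reads.

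Earlier lists of pig circRNAs, which the deposited table cites, contained 23 of the 285 members (8.07%), against 33.1% of exonic, 29.2% of sense overlapping, 11.4% of intergenic and 2.37% of antisense circRNAs. The 23 listed members had a median length of 10588 nt and held 56.2% of the intronic reads, and 13 of them were detected in 2 or more libraries. All 6 members found in 5 or 6 libraries were listed. Of the 262 unlisted members, 10 were detected in a second library.

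Detection was scattered. A single library held 262 members (91.9%), while 13 were found in 2 libraries, 3 in 3, 1 in 4, 3 in 5 and 3 in all 6. The share found in a single library was 74.6% for exonic, 70.8% for sense overlapping, 88.1% for intergenic and 95.3% for antisense circRNAs. To compare classes at the same depth, the percent of a library's detected circRNAs that were also found in another library was taken within each library. For the intronic class it was 13.0, 30.4 and 21.7% in the AA libraries, against 40.9, 22.2 and 18.8% in the HA libraries. The exonic class had 47.4, 58.7 and 55.1% in AA libraries and 54.9, 45.3 and 45.1% in HA libraries, so the intronic share was lower in 6 of 6 libraries. The mean difference was −26.6 ± 7.5 percentage points (SD, n = 6), with p = 0.031 in a two-sided exact sign-flip test and an adjusted p of 0.0781 over 10 comparisons. This is the smallest p that 6 libraries allow, and it did not pass after adjustment. Against sense overlapping circRNAs the difference was −35.7 ± 8.69 points, again lower in 6 of 6 libraries (exact sign-flip test, p = 0.031, adjusted p = 0.0781). Against intergenic circRNAs it was −5.08 ± 12.9 points (exact p = 0.375, adjusted p = 0.469) and against antisense circRNAs 7.51 ± 10.0 points (exact p = 0.156, adjusted p = 0.26), with libraries on both sides of 0 in each case. Without AA library 2 these were −9.42 and 4.89 points, and the intergenic difference was −2.65 points without HA library 2 and −2.91 points without HA library 3. Libraries share circRNAs with one another, and the 6 differences are therefore not fully independent.

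**Figure D3:**
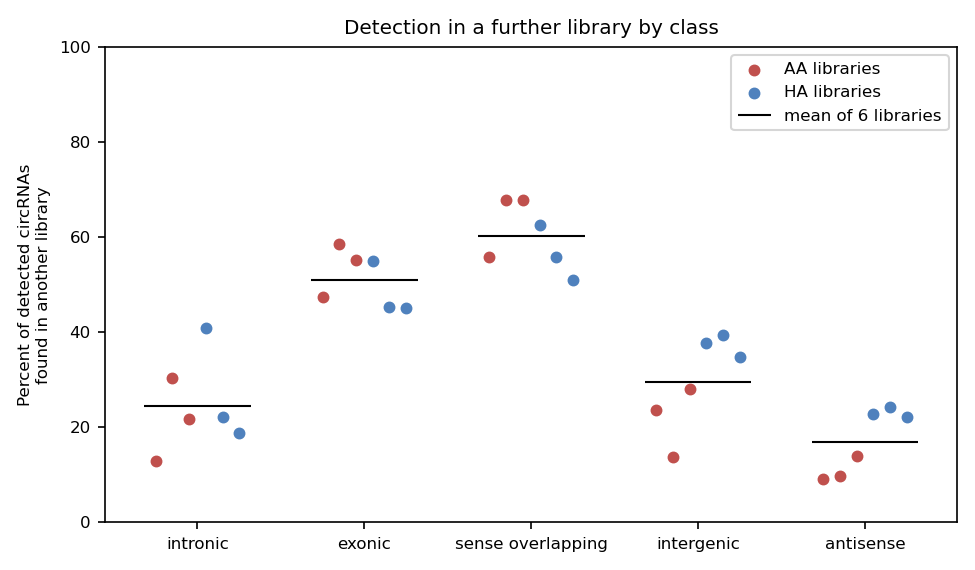
Percent of the circRNAs detected in a library that were also found in at least 1 other library (y axis) for each class (x axis), with 1 point per library and a line at the mean of the 6. The intronic points run from 13.0 to 40.9% and lie, library by library, under the exonic ones (45.1 to 58.7%).

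When a circRNA was detected at all, an intronic one had about as many reads as an exonic one in the same library. The mean log2 reads per detected circRNA was 2.95 ± 0.82 for the intronic and 2.93 ± 0.79 for the exonic class (SD, n = 6 libraries), a difference of 0.02 ± 0.13 with 3 libraries below 0 (exact sign-flip test, two-sided, p = 0.75, adjusted p = 0.75). The single differences ran from −0.18 to 0.15. Sense overlapping circRNAs had more reads, and the intronic mean was lower by 0.42 ± 0.14 on the log2 scale in 6 of 6 libraries (exact sign-flip test, p = 0.031, adjusted p = 0.0781). The differences from the intergenic (0.04 ± 0.17) and antisense classes (0.17 ± 0.14) had adjusted p-values of 0.694 and 0.125 in the same exact test.

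The number of intronic circRNAs did not separate AA from HA. It was 77, 46 and 46 in AA libraries, against 22, 63 and 80 in HA libraries, so both the lowest and the highest count belonged to HA. The means were 56.3 ± 17.9 in AA and 55.0 ± 29.8 in HA (SD, n = 3 each; exact permutation test, two-sided, p = 1). AA library 1 and HA libraries 2 and 3, which had the most circRNAs of every class, also had the most intronic ones. Members seen in AA libraries alone numbered 138, those seen in HA libraries alone 132, and 15 members had reads in both groups. Of the members of 1 group, 135 in AA and 127 in HA were seen in 1 library, which can belong to 1 group only. Such single-library detection held for 91.9% of intronic and 77.2% of all circRNAs. Members of 300 to under 1000 nt numbered 29, 15 and 12 in AA libraries, against 0, 13 and 11 in HA libraries, so the groups overlapped, and AA library 1 held the most. Shorter ones numbered 19, 8 and 9 in AA libraries, against 8, 20 and 27 in HA libraries, again with overlap.

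As a share of all circRNAs detected, however, the intronic class was larger in every AA library than in any HA library. The share was 2.54, 3.62 and 2.84% in AA libraries, against 1.55, 2.25 and 2.31% in HA libraries, with means of 3.00 ± 0.56% and 2.04 ± 0.42% (SD, n = 3 each). The exact permutation p was 0.1, the smallest that 3 against 3 libraries can give, and 0.4 after adjustment over the 4 class-level comparisons. The 95% Wilson intervals were 2.73 to 4.8% for AA library 2 and 1.03 to 2.34% for HA library 1, and those of AA library 1 (2.03 to 3.16%) and HA library 3 (1.86 to 2.86%) overlapped. These intervals cover counting error only. The groups did not overlap in any other class either. The intergenic share averaged 14.2% in AA and 9.18% in HA and the antisense share 7.28% in AA and 2.47% in HA, while exonic circRNAs made up 49.0% in AA and 57.5% in HA and sense overlapping ones 26.6% in AA and 28.9% in HA. Since shares sum to a whole, these differences are not separate. Taken for the circRNAs inside the locus of their host alone, the intronic share averaged 2.2% in AA and 1.65% in HA (exact p = 0.2). Counting only circRNAs with at least 5 reads in the library, it averaged 2.73% in AA and 1.88% in HA (exact p = 0.2). The groups overlapped in both of these cases. Members under 1000 nt made up 1.56% in AA and 0.946% in HA, and single-library members 2.32% in AA and 1.51% in HA (exact p = 0.1 each).

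In reads the contrast was smaller. Intronic circRNAs had 650, 873 and 866 reads in AA libraries, against 520, 738 and 698 reads in HA libraries, or 2.26, 3.38 and 2.52% of the junction reads of the AA libraries, against 1.63, 2.26 and 2.36% for HA. The difference of the means was 0.63 percentage points (exact permutation test, two-sided, n = 3 each, p = 0.3, adjusted p = 0.533). It was 0.302 points without AA library 2 and 0.405 points without HA library 1. Scaled to relative mapped depth, the reads were 650, 1088 and 1115 in AA libraries, against 748, 750 and 757 in HA libraries. The HA libraries were close to each other and AA library 1 lay below them, so that the log2 ratio of the means of 0.34 had an exact p of 0.4 (adjusted p = 0.533). This log2 ratio was 0.55 without AA library 1 and 0.21 without AA library 3.

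**Figure D4:**
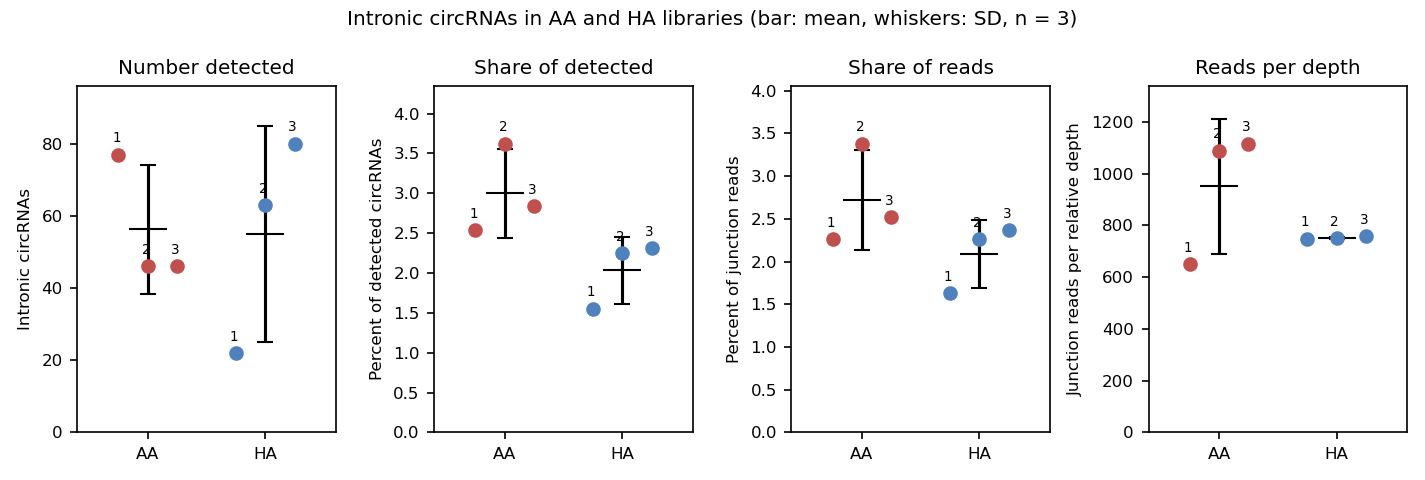
Number of intronic circRNAs detected, their percent of all detected circRNAs, their percent of all junction reads and their junction reads per relative depth (y axes, from 0) in AA and HA (x axes), with 1 point per library labelled by its number, a bar at the mean and whiskers of 1 SD (n = 3). The shares of detected circRNAs are 2.54 to 3.62% in AA and 1.55 to 2.31% in HA, and the other measures overlap between the groups.

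Single intronic circRNAs could be tested between AA and HA in 10 of 285 cases, those with at least 2 reads in at least 3 libraries. None of these 10 was called (edgeR, adjusted p of at most 0.05 and fold change of at least 2), where 0.0986% of the 1014 circRNAs tested were called. Without adjustment, 0 of 10 met the same limits, against 5.72% of all circRNAs tested, and DESeq2 called 0 of 10. On simulated counts as variable as those of these libraries, edgeR did not recover the changes that had been planted, so the absence of calls says little about the members. No tested member had all of its AA libraries above or all below its HA libraries in scaled reads, against 2.86% of all tested circRNAs above and 8.88% below. Of the 10 members, 6 had a positive and 4 a negative log2 fold change, with a median of 0.24, against −0.15 over all circRNAs tested. The smallest p-values belonged to the 2978-nt circRNA of ENSSSCG00000024272 (log2 fold change 4.07 ± 2.72, SE), that of NAA15 (1.08 ± 1.33) and that of PON1, with an edgeR adjusted p of 0.998 for each. For the first of these, 35 reads in AA stood against 2 in HA, a depth-scaled ratio of 17.7 with an exact 95% counting interval of 4.54 to 152. This interval takes every read as independent, although both mates of a fragment may have been counted, and leaves out the variation between libraries. With reads in 2 of 3 AA libraries and 1 of 3 HA libraries, the difference did not exceed that variation.

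The 285 members were named for 232 host genes, of which 201 had a single intronic circRNA and 10 had 3 or more. The gene table held 216 of the host names, covering 269 members. Hosts of intronic circRNAs had a median close to that of hosts of exonic ones, at 22.8 FPKM (mean of 6 libraries) over 216 genes, against 23.0 FPKM over 2096 hosts of exonic circRNAs and 2.58 FPKM over all 19442 genes. The quartiles were 7.38 and 42.1 FPKM for intronic hosts, against 12.6 and 43.1 FPKM for exonic hosts, and 99 of the 232 host names belonged to both sets. Of the intronic hosts, 195 (90.3%) reached 1 FPKM, against 98.2% of exonic hosts. The host of highest level was GCLC, the catalytic subunit that starts glutathione synthesis, with a mean of 794 FPKM and a single intronic circRNA of 3 reads in AA library 1. PON1, the muscle myosin gene MYH1, the dimethylglycine dehydrogenase gene DMGDH and SLC7A14 were listed at 0 FPKM in every library.

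The position of a member did not always fall within the gene whose name it bears. Of the 269 members with a host in the gene table, 223 lay inside the table's locus of that gene, 36 lay on the same chromosome outside it and 10 lay on another chromosome. All 46 members outside their host were assigned through a RefSeq transcript, whereas the 221 members assigned through an Ensembl transcript with a host in the table all lay inside. These 46 members included circ_PON1 and held 24.1% of the intronic reads, and 14 of them overlapped another gene of the table on their own strand. Hosts whose circRNA lay inside had a median of 23.3 FPKM over 194 genes, and hosts whose circRNA lay outside had 14.2 FPKM over 22 genes. For hosts outside, FPKM are values of the named gene and not of the locus of the circRNA.

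Of the 10 hosts with 3 or more intronic circRNAs, 6 had all of them outside the table's locus of the gene. STAT2, a transcription factor of interferon signalling, was named for 9 circRNAs on chromosome 17 although its table locus is on another chromosome, and all 9 lay on the strand opposite to TSHZ2. Their length was 116 to 1688 nt, and 8 were seen in 1 AA library each and 1 in HA library 1. The 5 circRNAs named for AUTS2, a nuclear protein known from neural development, lay 345379 to 1213204 nt outside the table's locus. Those of 317 and 362 nt had 23 and 13 reads in AA library 2, that of 565 nt had 18 reads in AA library 3, that of 49165 nt had 4 reads in AA library 1, and that of 467 nt had 2 reads in HA library 2. FGL2, a fibrinogen-like protein, had 4 circRNAs and UBAP1 and CHMP5, of the membrane-sorting ESCRT machinery, and CSE1L, an export factor of the nucleus, had 3 each. The 3 of CHMP5 were seen in AA libraries alone, with 7 to 16 reads.

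Inside their host lay 6 circRNAs of NAA15, 3 of FOXO1 and 3 each of the unnamed genes ENSSSCG00000028257 and ENSSSCG00000024272. Of the 6 circRNAs of NAA15, 5 began at the same coordinate (93287563), the downstream end on the minus strand, and their other ends gave lengths of 19599 to 32864 nt. The 21037-nt form was the most abundant with 134 reads. The 21034-nt form, which differs by 3 nt, had 0, 5 and 0 reads in AA libraries, against 0, 5 and 3 in HA libraries. The 32864-nt form had 0, 14 and 3 reads in AA libraries and none in HA libraries. Together the 6 held 55.7% of the 316 junction reads of all 17 circRNAs of NAA15. The 3 circRNAs of ENSSSCG00000024272 were all the circRNAs of that gene, and the 49437-nt and 2978-nt forms shared their start at 23112748. FOXO1, a transcription factor that promotes apoptosis in granulosa cells, had a mean of 491 FPKM and intronic circRNAs of 475, 51266 and 702 nt with 7, 4 and 3 reads, 10.9% of its 129 junction reads.

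Shared ends were a feature of the recurrent members. In all, 41 members shared a start or an end with another circRNA of the same strand, 31 of them with another intronic circRNA and 12 with a circRNA of another class. Of the 23 members found in 2 or more libraries 14 shared an end, against 27 of the 262 members of a single library. Other circRNAs came from the same genes as well. Of the 232 hosts, 99 (42.7%) gave exonic circRNAs too, and 105 had no circRNA other than intronic ones. In 34 of the 127 hosts with both intronic and other circRNAs an intronic one had the most reads, and in 5 more it tied with one of another class.

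Host gene levels were then compared between AA and HA with limma on log2(FPKM + 1) in the 198 hosts that reached 1 FPKM in 3 or more libraries. No host had an adjusted p of 0.05 or less, and neither did any of the 11001 genes tested (0% higher and 0% lower in AA). Unadjusted p-values of 0.05 or less belonged to 38 hosts (19.2%), against 1718 of all genes (15.6%). The median log2 fold change of the hosts was −0.01, against 0.01 over all genes. With the library number as a block, which pairs libraries of the same date, 1 host was called (COL12A1, limma, adjusted p = 0.0364), beside 13 of all 11001 genes. Without AA library 3 there were 3 called hosts (COL12A1, CYP19A1 and NR5A2) among 97 called genes, and without any other single library there were 0 called hosts.

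COL12A1, which encodes a chain of collagen XII in the extracellular matrix, had 121, 245 and 64.7 FPKM in AA libraries, against 11.9, 4.61 and 3.86 FPKM in HA libraries. The groups did not overlap, and the log2 fold change was 4.15 ± 0.51 (SE, limma, adjusted p = 0.0568). Its intronic circRNA of 1061 nt had 4 reads in AA library 1 and none elsewhere. NFE2L3, a transcription factor of the NRF family, averaged 40.1 ± 8.78 FPKM in AA and 11.3 ± 3.21 FPKM in HA (SD, n = 3 each; limma, adjusted p = 0.0568), and its circRNA of 961 nt had 6 reads in AA library 2. CYP19A1 had 224, 128 and 307 FPKM in AA libraries, against 744, 1052 and 802 FPKM in HA libraries (log2 fold change −2.05 ± 0.32, SE; limma, adjusted p = 0.0568). The circRNA named for it had 9 reads in AA library 3, and lay 194804 nt outside the CYP19A1 locus. AUTS2 had 20.4, 41.8 and 21.2 FPKM in AA libraries, against 9.21, 9.45 and 6.91 FPKM in HA libraries (log2 fold change 1.53 ± 0.30, SE; limma, adjusted p = 0.0714). NR5A2, a nuclear receptor of steroid-producing cells, averaged 227 ± 104 FPKM in AA and 474 ± 19.1 FPKM in HA (SD, n = 3 each; limma, adjusted p = 0.139), and its circRNA had 2 reads in AA library 1. For these hosts too, the markers of other cell types given above differed between the groups, and their part was not tested.

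The hosts of the leading circRNAs were also not called. ZCCHC11 had 20.5, 23.2 and 29.3 FPKM in AA libraries, against 25, 21.6 and 21.0 FPKM in HA libraries, a log2 fold change of 0.09 ± 0.19 (SE, limma, adjusted p = 0.849). ZEB1 had 9.60, 14 and 10.24 FPKM in AA libraries, against 7.35, 6.05 and 6.36 FPKM in HA libraries, with groups that did not overlap (0.68 ± 0.23, SE; limma, adjusted p = 0.222). NAA15, CSPP1 and DYRK1A had log2 fold changes of −0.22 ± 0.23, −0.39 ± 0.20 and 0.14 ± 0.22 (SE), with limma adjusted p-values of 0.675, 0.395 and 0.797. ENSSSCG00000024272 had 0, 0 and 3.31 FPKM in AA libraries, against 5.82, 7.15 and 2.44 FPKM in HA libraries (log2 fold change −1.83 ± 0.62, SE; limma, adjusted p = 0.213), and AA library 2, with 0 FPKM, held the most reads of both its leading circRNAs. Among circRNAs inside the locus of their host, those seen in AA alone had hosts with a median log2 fold change of 0.04 over 86 tested genes (44 higher and 42 lower in AA), and those seen in HA alone had hosts with a median of −0.09 over 98 genes (43 higher and 55 lower).

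**Figure D5:**
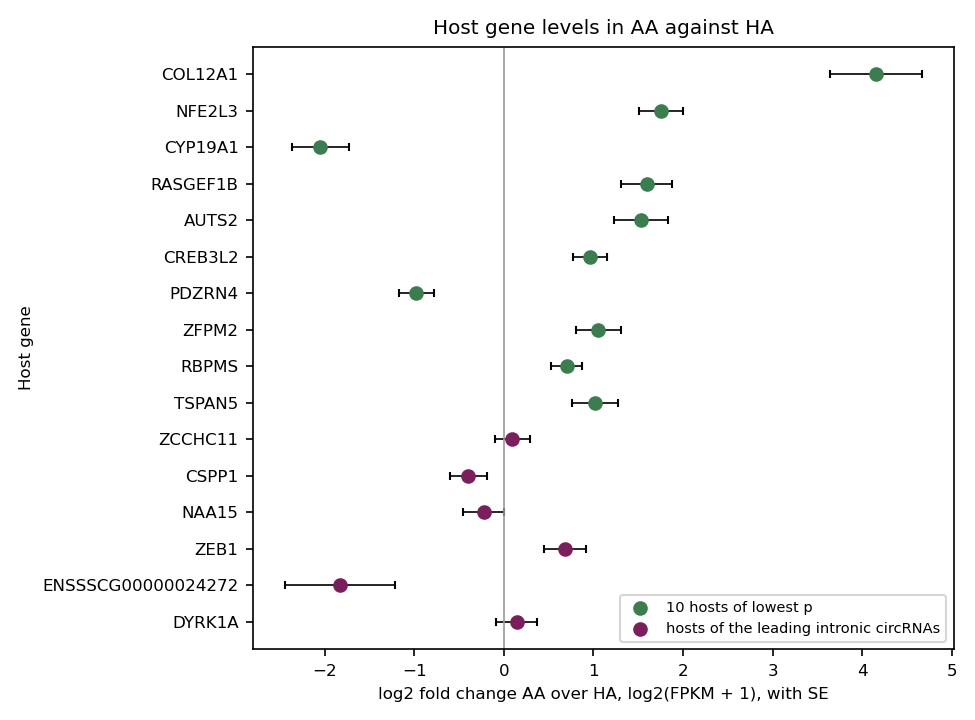
Log2 fold change of host gene level in AA over HA on the log2(FPKM + 1) scale with its SE (x axis) for the 10 hosts of lowest p and the tested hosts of the leading intronic circRNAs (y axis), from 3 libraries per group. COL12A1 lies at 4.15 and CYP19A1 at −2.05, ZCCHC11 lies at 0.09, DYRK1A at 0.14 and NAA15 at −0.22, and none passed an adjusted p of 0.05.

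The genes that make, open and degrade intron lariats were measured in the same libraries, by lists of known members. Since 0 of all 11001 genes tested were called in either direction, the absence of calls in the lists below does not set them apart. Of the lariat release and debranching list, 8 of 13 genes were tested and 0 were called higher or lower in AA (limma), with a median log2 fold change of −0.12. DBR1, the debranching enzyme, averaged 2.21 FPKM in AA and 2.5 FPKM in HA (log2 fold change −0.03 ± 0.40, SE; limma, adjusted p = 0.977). GCFC2 and CWF19L2 had log2 fold changes of −0.46 ± 0.28 and −0.43 ± 0.21 (SE), and XAB2 one of 0.25 ± 0.25. DHX15, the helicase that takes the lariat spliceosome apart, averaged 105.9 FPKM in AA and 106.0 FPKM in HA. Of the catalytic spliceosome and branch site list 18 of 20 genes were tested and 0 were called, with a median of 0.11. SF1, the protein that binds the branch point, averaged 112 FPKM in AA and 78.2 FPKM in HA (0.49 ± 0.18, SE; limma, adjusted p = 0.254), the splicing factor PLRG1 averaged 5.67 FPKM in AA and 3.75 FPKM in HA, and SLU7 and BCAS2 had log2 fold changes of −0.44 each. Of the nuclear exosome and exonuclease list 15 of 17 were tested and 0 were called, with a median of −0.02, and RBM7, an adaptor of the exosome, averaged 31.9 FPKM in AA and 48.2 FPKM in HA (−0.64 ± 0.25, SE; limma, adjusted p = 0.277). In this list EXOSC8 had a log2 fold change of −0.59 ± 0.76 and EXOSC5 the largest positive one, 0.32 ± 0.40 (SE). Of the list of circRNA formation regulators 11 of 16 were tested and 0 were called, with a median of 0.01, and ADAR, the RNA editing enzyme, had a log2 fold change of 0.41 ± 0.26 (SE; limma, adjusted p = 0.506). That of DHX9 was −0.37 ± 0.33 (SE).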

How the data were processed

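Granulosa cell RNA from 3 AA and 3 HA libraries was analysed. The authors trimmed reads with cutadapt, aligned them with bowtie2 to Sscrofa10.2, called junctions with find_circ and, for genes, used TopHat and Cufflinks. The deposited circRNA table holds the authors' junction read counts, each either 0 or no lower than 2, their log2 values scaled to mapped reads, and a predicted length. The deposited gene table holds FPKM (the authors' Cufflinks estimate). The gene table's scaled values named counts and the lncRNA table were not used, and the number of columns belonging to no sample was 0.

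Relative depth (0.695 to 1) came from the constant in the deposited log2 values and set the library sizes in edgeR 4.0.16 (quasi-likelihood; at least 2 reads in at least 3 libraries; 1014 circRNAs; common dispersion 2.03). FPKM were tested with limma 3.58.1 (trend, log2(FPKM + 1), at least 1 FPKM in at least 3 libraries; 11001 genes). DESeq2 1.42.0 was an alternative, as were other scalings and filters and leaving out each library. The fits were tested on simulated data: limma, and edgeR at low dispersion, recovered the planted changes, but edgeR at the dispersion estimated here did not. Class measures used exact permutation tests over libraries. Host names were matched by identifier, table symbol or reference symbol.

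Labels give the AA and HA libraries of 1 number the same date, read here as a shared day. Deviations of same-numbered libraries correlated by −0.01, 0.00 and −0.06 (circRNAs) and −0.29, 0.00 and −0.40 (genes). The fits had no block, as in the study's methods.

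Members and gene lists were chosen with earlier results of these data known. Named circRNAs were the 10 with the most reads, those in at least 4 libraries, the 3 lowest p-values, the 3 longest and 3 shortest, and hosts with at least 3 members. Hosts were named for these, for the highest and lowest FPKM, and, as none was called, after their values were seen for low p or for a call without AA library 3. Not every host of low p was named. Listed genes were named by size of change, EXOSC5 as the largest positive change of its list, and DBR1 and DHX15 for their role. No sequences are shown, as no genome of the build was used here.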

Additional observations from a re-analysis of the deposited data

How the results depend on the processing

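Of 132 alternative values computed, 123 kept their direction and their side of the threshold. For the class-level measures of AA against HA that side was fixed in advance, as their exact tests cannot give less than 0.1. With 1 library left out, the sign-flip tests between classes could not pass either, since they give no p below 0.0625. For these values the tally speaks to direction only. With the replicate block, which pairs libraries of the same date, 1 host gene was called, against 0 without it, and 13 of 11001 genes were called with it, against 0. The block changed no call among the intronic circRNAs. No class-level measure could pass with it, as 3 pairs give no sign-flip p below 0.25. Leaving out each library in turn gave 0 to 3 called hosts. Without AA library 3, 3 of 196 hosts were called (COL12A1, CYP19A1 and NR5A2; limma, adjusted p = 0.0263, 0.0348 and 0.0478), and over all genes 97 of 10788. The difference in the number of intronic circRNAs detected (1.33, AA minus HA) ran from −15.2 without HA library 1 to 13.8 without HA library 3, and was −9.00 without AA library 1. The difference in mean log2 reads between intronic and exonic circRNAs ran from −0.0094 (without HA library 1; −0.0054 without HA library 2) to 0.056, and it was −0.0901 with median reads in place of the mean. Against intergenic circRNAs it ran from −0.0187 (without AA library 2) to 0.077, and was −0.0901 with median reads. The causes were not tested. Choices added after the data were seen, on the share of detected circRNAs, kept AA above HA on average by 0.54 to 0.85 percentage points. The groups overlapped for members inside their host locus and for circRNAs with at least 5 reads in the library.

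The smallest p of an exact test with 3 libraries per group is 0.1. Most members were seen in too few libraries to be tested singly, and the 275 members outside the test had reads in fewer than 3 libraries. With no filter, edgeR called 0 of 285 members. Whether a difference could have been detected at their depth was not tested. A p that missed the threshold does not show that AA and HA had equal levels.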

Other observations

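Even read numbers prevailed in the junction counts. Of the 334 values above 0 that the intronic circRNAs had in single libraries, 231 (69.2%) were even, against 71.1% of 7421 exonic values and 70.0% of 13611 values of all classes. A count of 2 occurred 64 times and a count of 3 occurred 32 times among the intronic values. The libraries were read from both ends, and whether both mates of a fragment were counted was not tested.

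Counts of exactly 2 reads were unevenly spread among the libraries. They made up 20, 0 and 0 of the intronic values in AA libraries 1 to 3, against 1, 12 and 31 in HA libraries 1 to 3. In the libraries with 0 or 1 such counts, the median detected circRNA over all classes had 13 or 14 reads, against 4 to 6 in the others. The uneven spread was thus not shown to be particular to the intronic class. Members found in no other library gave 42.3, 50.4 and 42.8% of the intronic reads in AA libraries 1 to 3, against 26.5, 40.5 and 31.2% in HA libraries 1 to 3. The groups did not overlap in this value, which was chosen after it was seen and was not tested. It is given for the intronic class alone, so it cannot be told from a trait of all classes.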
